A study of Mus musculus with 4 samples.

Results

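The cells described here were liver T cells that passed a regulatory T cell (Treg) gate set on RNA and held at least 1 UMI of Penk, the gene for proenkephalin. They were chosen from single-cell RNA-seq count matrices by raw UMIs: more than 200 genes and under 5% mitochondrial UMIs, a UMI of Foxp3 or Ikzf2, a UMI of Cd3e, Cd3d or Cd3g, and no UMI of Il10, Il1rl1, Siglech or Lyz2. In the library labelled WT 1199 cells passed the gate, and in that labelled dKO 5128. Of these, 27 and 175 cells had a Penk UMI, so 202 of 28247 deposited cells were Penk-positive gate cells. The other 1172 and 4953 gate cells are called Penk-negative and served for comparison, although a cell without a Penk UMI may still hold Penk RNA. Both libraries came from CD4+ T cells sorted from the liver of male mice on a choline-deficient, amino-acid-defined diet with 60 kcal% fat and 0.1% methionine, which is used to model metabolic dysfunction-associated steatohepatitis. The dKO mice were Nr4a1 fl/fl Nr4a2 fl/fl Cd4Cre, in which Cd4-Cre acts in all cells that have passed through a CD4-expressing stage in the thymus, CD8 T cells included. WT mice were the comparison, and cells from 2 mice were pooled into the 1 library of each genotype. Strain and age are not given in the labels used here. With 1 library a genotype there was no replicate check, and no test between the libraries or between the cell sets was made. All intervals are exact 95% intervals that cover counting error only.

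Proenkephalin is a secreted precursor that is cut into the enkephalins, short peptides that act on opioid receptors. Tregs are CD4 T cells that restrain other immune cells; they depend on the transcription factor Foxp3, and many also express Helios, the product of Ikzf2. In tissues, Tregs take on further programmes, among them amphiregulin (Areg) production linked to repair. Members of the TNF receptor superfamily on Tregs, such as 4-1BB (Tnfrsf9) and OX40 (Tnfrsf4), signal through TRAF adaptors to NF-kB. Nr4a1 and Nr4a2 encode orphan nuclear receptors that are induced by T cell receptor signalling.

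The deposited libraries held 10602 and 17645 cells with 23494155 and 37966611 UMIs. The targeted genes were not lower in the library labelled dKO. Over all cells that passed the filters, Nr4a1 stood at 725 (714 to 736) with the WT label and at 1659 (1646 to 1672) with the dKO label, in UMIs per 1000000 UMIs (CPM), and Nr4a2 at 183 (178 to 189) and 306 (300.2 to 311). In Penk-positive gate cells Nr4a1 was 579 CPM (424 to 772) and 2118 (1967 to 2278). These counts cover whole genes, so transcripts that lack a deleted exon are still counted, and the genotype labels could not be checked from them. The libraries shared 245 cell barcodes, 13 of them among gate cells, and none was Penk-positive in both.

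Penk lies on chromosome 4 (mm10, 4133531 to 4138819, minus strand; ENSMUSG00000045573). Penk-positive gate cells held 88 Penk UMIs in the library labelled WT and 991 in that labelled dKO. The median was 3 UMIs a cell in both libraries, and the highest cell had 11 and 67. Just inside the threshold, 9 and 51 cells had a single Penk UMI, while 18 and 124 had at least 2 and the cells just outside it had none by definition. The cells with Penk were not much deeper than those without: the median was 2165 against 2095.5 UMIs a cell in the library labelled WT, and 1526 against 1374 in the other. Of the 27 cells in the library labelled WT, 18 entered the gate through Ikzf2 alone, 8 had both genes and 1 had Foxp3 alone. With the dKO label the numbers were 89, 67 and 19. Thus 95 of the 202 cells had a Foxp3 UMI, and the Treg label rests on Ikzf2 alone for the rest.

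The share of gate cells with a Penk UMI was 2.25% (1.49 to 3.26) in the library labelled WT and 3.41% (2.93 to 3.95) in that labelled dKO. At an equal depth of 1000 randomly kept UMIs a cell, without the 146 and 1212 cells that were shallower, the shares were 1.71% and 3.14%. Penk summed over gate cells was 27.2 CPM (21.8 to 33.5) and 108 CPM (101 to 115). Cells with a UMI of Il1rl1, which encodes the IL-33 receptor ST2 and whose carriers the gate left out, had the highest shares of the sets compared in both libraries, at 6.40% (3.24 to 11.2) and 6.82% (4.80 to 9.36), at median depths of 3006.5 and 2028 UMIs. Thinned to 1000 UMIs they were at 4.35% (1.77 to 8.75) and 5.91% (3.93 to 8.48). Gate cells with both Foxp3 and Ikzf2 had Penk in 4.35% and 3.99% unthinned and in 2.35% and 3.51% thinned to 1000 UMIs. Thinned to 1500 UMIs they had it in 0.725% with the WT label, or 1 of 138 cells. Cells with Il10 but no Il1rl1 UMI had Penk in 0 of 40 cells, which allows up to 8.81%, and in 2.84% (1.97 to 3.97). T cells with neither Foxp3 nor Ikzf2 UMIs were lower, at 0.762% (0.559 to 1.02) and 1.12% (0.840 to 1.47), with median depths of 1643 and 1291 UMIs.

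Free RNA gives UMIs to cells that do not express a gene, so cell sets with marker genes of other cell types were read alongside. Whether these sets lack Penk was not tested. Cells with a Siglech UMI, a marker of plasmacytoid dendritic cells, had a Penk UMI in 0.130% and 0.784% at median depths of 1843 and 3041 UMIs. Thinned to 1000 UMIs the shares were 0.167% and 0.486%. With the dKO label 13 of the 31 Penk-positive Siglech cells held at least 3 Penk UMIs. Lyz2-carrying cells had a Penk UMI in 1.84% (1.01 to 3.07) and 2.04% (1.36 to 2.93), unthinned, at 2097 and 2307 UMIs. In the library labelled WT that interval overlaps the one for the gate. The Lyz2 set was not free of T cells, as 12 of its 14 and 24 of its 28 Penk-positive cells also held a CD3 UMI. Of all 105 and 365 Penk-positive cells that passed the filters, 46 and 52 were T cells without a Foxp3 or Ikzf2 UMI. Another 11 and 35 had the gate genes with Il1rl1, and 0 and 33 had them with Il10. The remaining cells left out held Lyz2 (14 and 28), Siglech (2 and 31) or no CD3 UMI (5 and 11).

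**Figure D1:**
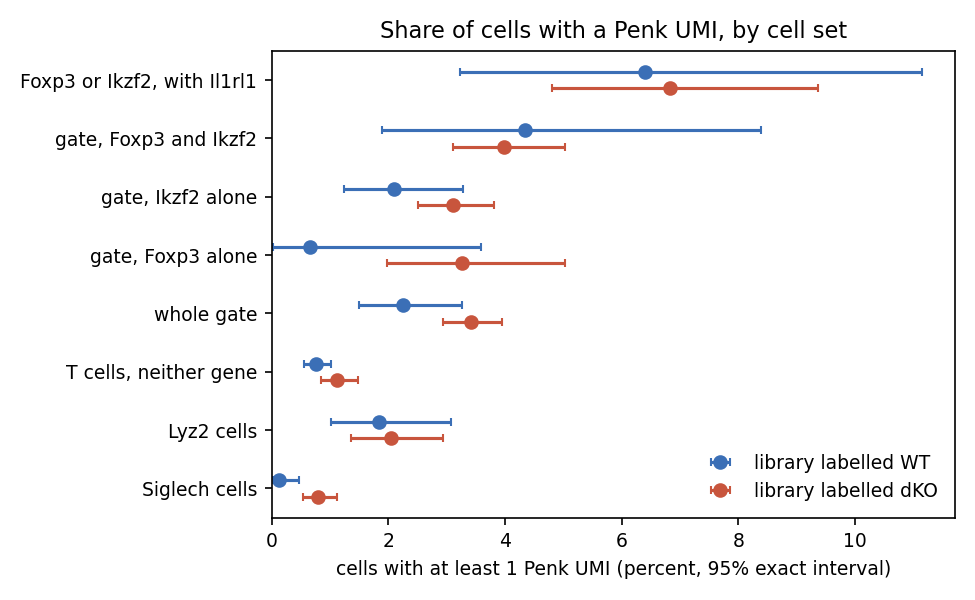
Percent of cells with at least 1 Penk UMI (x axis) in 8 cell sets (y axis) of each library, with points for the share and bars for the exact 95% interval. Cells with Il1rl1 sit highest, at 6.40% and 6.82%, and the Siglech cells are at 0.130% and 0.784%.

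Penk-positive gate cells had more RNA for 4-1BB (Tnfrsf9), CD30 ligand (Tnfsf8), CD83, PD-1 (Pdcd1), the chemokine receptor CCR8, integrin alpha V (Itgav) and the NF-kB subunits Nfkb1 and Rel than Penk-negative gate cells in both libraries. They had less Icos, Klf2, Gzmb, Ccl5 and Egr1. These 13 genes were picked from the 28 higher and 22 lower genes counted below, which also include Tnfrsf4 and Resf1. The alternatives that follow are given for the 13 alone. With a Foxp3 UMI required, which left 9 and 86 Penk-positive cells, Tnfrsf9 alone of these 13 genes kept an interval on the same side of 0 in both libraries, and Ccl5 changed sign in both. With 1 cell per clonotype Tnfsf8, Cd83, Ccr8, Nfkb1 and Icos kept such intervals, and under TMM scaling (a trimmed mean of log ratios in place of the total) all but Rel did. Here and below, 1 cell per clonotype means the deepest cell of each clonotype and Penk class, among cells with both receptor chains read. A gene was counted as higher or lower where the interval of its log2 ratio of summed CPM lay on the same side of 0 in both libraries, a rule chosen after the data were seen. Of 2982 genes with at least 50 CPM over gate cells in each library, 28 were higher (0.939% of the genes tested) and 22 lower (0.738%) by this rule. With a 1.5-fold ratio in both libraries instead, 11 genes were higher (0.369%) and 26 lower (0.872%), of which 7 and 3 were shared with the interval rule. These fold counts moved with the settings, to 1 and 88 under TMM scaling and to 24 and 44 with a Foxp3 UMI required. The minimum of 50 CPM is worth only 3.98 UMIs in the Penk-positive cells of the library labelled WT, where 11.9% of genes passed 1.5-fold upward and 18.9% downward by themselves, against 1.74% and 3.25% in the library labelled dKO. An interval lay above 0 for 5% and below 0 for 4.46% of genes in the library labelled WT, and for 5.53% and 4.66% in the other. Since Penk chose the cells, these ratios describe them and carry no test.

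**Figure D2:**
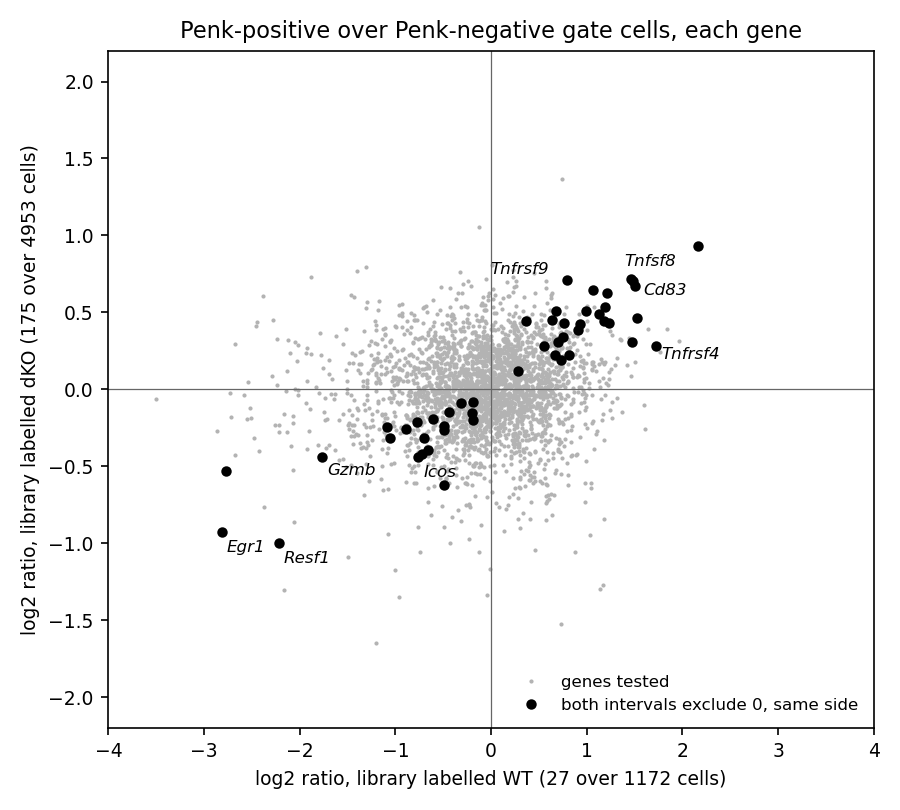
Each point is 1 of 2969 genes, by its log2 ratio of Penk-positive over Penk-negative gate cells in the library labelled WT (x axis) and dKO (y axis). Black points are genes whose intervals lie on the same side of 0 in both libraries, and 13 genes with a group at 0 UMIs are not drawn; the spread is wider along x, where 27 cells stand against 1172.

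Tnfrsf9 (chromosome 4, 150914562 to 150946102) was measured at 402 CPM in Penk-positive and 233 CPM in Penk-negative gate cells of the library labelled WT, a log2 ratio of 0.79 (0.23 to 1.30). With the dKO label it was 1499 against 918 CPM, a log2 ratio of 0.71 (0.58 to 0.84). A single cell gave 9 of the 32 Tnfrsf9 UMIs in the library labelled WT, and without it the ratio there was 0.43 (-0.23 to 1.03). Of Penk-positive cells thinned to 1000 UMIs, 64.4% held a Tnfrsf9 UMI in the library labelled dKO against 48.8% of Penk-negative cells (unthinned, 80.0% and 59.6%). With the WT label the thinned shares were 24% (9.36 to 45.1) and 16.7% (14.5 to 19.2), whose intervals overlap. Read the other way, the share of gate cells with a Penk UMI was 1.72% (1.20 to 2.38) among those without Tnfrsf9 UMIs, 2.85% (1.96 to 4.0) with 1 and 5.49% (4.53 to 6.59) with 2 or more in the library labelled dKO. The same shares were 1.88%, 2.65% and 3.75% in the library labelled WT, where the intervals overlapped. Median depth also moved with this order, from 1286 to 1508 and from 1966 to 2716 UMIs, and its part in it was not tested.

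All 8 measured members of the TNF receptor list lay above a log2 ratio of 0 in the library labelled WT, and 7 of 8 in the other. Of all genes tested, 46.2% and 49.6% lay above 0. The medians were 0.53 and 0.18, beside -0.05 and -0.00 over all genes tested. The first fell to 0.071 with 1 cell per clonotype, and the second to 0.055 with a Foxp3 UMI required and to 0.02 under TMM scaling. An interval above 0 was found for 4 and 2 members, beside 5% and 5.53% of all genes tested. Tnfrsf4, which encodes OX40, had 1421 against 431 CPM in the library labelled WT, a log2 ratio of 1.72 (1.43 to 2.00). There 44 of its 113 UMIs came from 1 cell, and the ratio was 1.18 without that cell. Under the dKO label Tnfrsf4 had 2156 against 1776 CPM, a log2 ratio of 0.28 (0.17 to 0.39). The adaptor gene Traf1 gave 0.54 (0.01 to 1.03) and 0.17 (-0.06 to 0.39), and Tnfrsf18, which encodes GITR, gave 0.53 (0.01 to 1.0) and 0.00 (-0.16 to 0.16). Without the highest cell the WT-labelled intervals of Traf1 and Tnfrsf18 also crossed 0.

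Among NF-kB genes, Nfkb1, which encodes p105 and its product p50, was at 1019 against 536 CPM in the library labelled WT, with a log2 ratio of 0.93 (0.59 to 1.25). In the other library it was at 665 against 496 CPM, with 0.42 (0.23 to 0.62). Rel, which encodes the c-Rel subunit, had 767 against 276 CPM and 446 against 360 CPM, log2 ratios of 1.48 (1.08 to 1.85) and 0.31 (0.06 to 0.54), and the second became 0.24 (-0.01 to 0.48) without its highest cell, 0.14 (-0.10 to 0.38) under TMM scaling and -0.087 (-0.64 to 0.42) with 1 cell per clonotype. Of 13 members measured, 12 lay above 0 in the library labelled dKO with 5 intervals above 0, among them the inhibitor gene Nfkbia at 0.38 (0.28 to 0.49). Under the WT label 7 lay above 0, 2 had an interval above 0, and the inhibitor of apoptosis gene Birc3 was lower at -0.93 (-1.93 to -0.08), which turned to 0.18 (-0.33 to 0.65) with Il10 and Il1rl1 cells kept. Over all genes tested 49.6% and 46.2% lay above 0, and 5.53% and 5% had an interval above 0, in the same order. The medians of the list were 0.04 with the WT label, which turned to -0.15 under TMM scaling and -0.16 with 1 cell per clonotype, and 0.23 with the dKO label, which fell to 0.07 under both.

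Among tissue Treg genes, Ccr8 (365 against 160 and 729 against 502 CPM) and the activation marker Cd83 (402 against 141 and 239 against 150.1 CPM) were higher in both libraries. Their log2 ratios were 1.19 (0.60 to 1.73) and 0.54 (0.35 to 0.72) for Ccr8, and 1.51 (0.94 to 2.03) and 0.67 (0.33 to 0.99) for Cd83. With the WT label 1 cell gave 13 of 32 Cd83 UMIs, and without it the ratio was 0.78 (0.04 to 1.44). Of 11 members measured, 2 had an interval above 0 with the WT label and 7 with the dKO label, beside 5% and 5.53% of all genes tested. In each library 3 members lay below 0. Cxcr6 did so in both, at 226 against 316 and 257 against 313 CPM. Batf (201 against 213 CPM) and Nfil3 (120 against 128 CPM) did so with the dKO label. The other genes had an interval above 0 in the library labelled dKO and not in that labelled WT. Among those, Id2, a transcriptional inhibitor of effector and tissue T cells, had a log2 ratio of 0.67 (0.52 to 0.83) against 0.26 (-0.31 to 0.77). Areg was at 995 against 650 CPM in the library labelled dKO, 0.61 (0.45 to 0.77), and at 277 against 270 CPM in the library labelled WT, 0.04 (-0.65 to 0.64). The others were the transcription factor genes Gata3 at 0.63 (0.25 to 0.99) and Rora at 0.49 (0.27 to 0.71), and the lectin-like receptor gene Klrg1 at 0.26 (0.01 to 0.50). With the WT label those 3 stood at 0.46, -0.41 and -0.53, each with an interval across 0. Klrg1 was at 0.20 (-0.05 to 0.44) without its highest cell and at -0.050 (-0.39 to 0.27) with a Foxp3 UMI required. Gata3 was at -0.15 (-0.80 to 0.44) with a Foxp3 UMI required. The list's medians over 11 members were 0.26 and 0.49. The second fell to 0.012 with a Foxp3 UMI required, and the first to -0.11 with 1 cell per clonotype. Itgav, whose product pairs with beta integrins that can activate TGF-beta, had 641 against 324 CPM, 0.99 (0.55 to 1.39), and 1170 against 823 CPM, 0.51 (0.36 to 0.65).

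**Figure D3:**
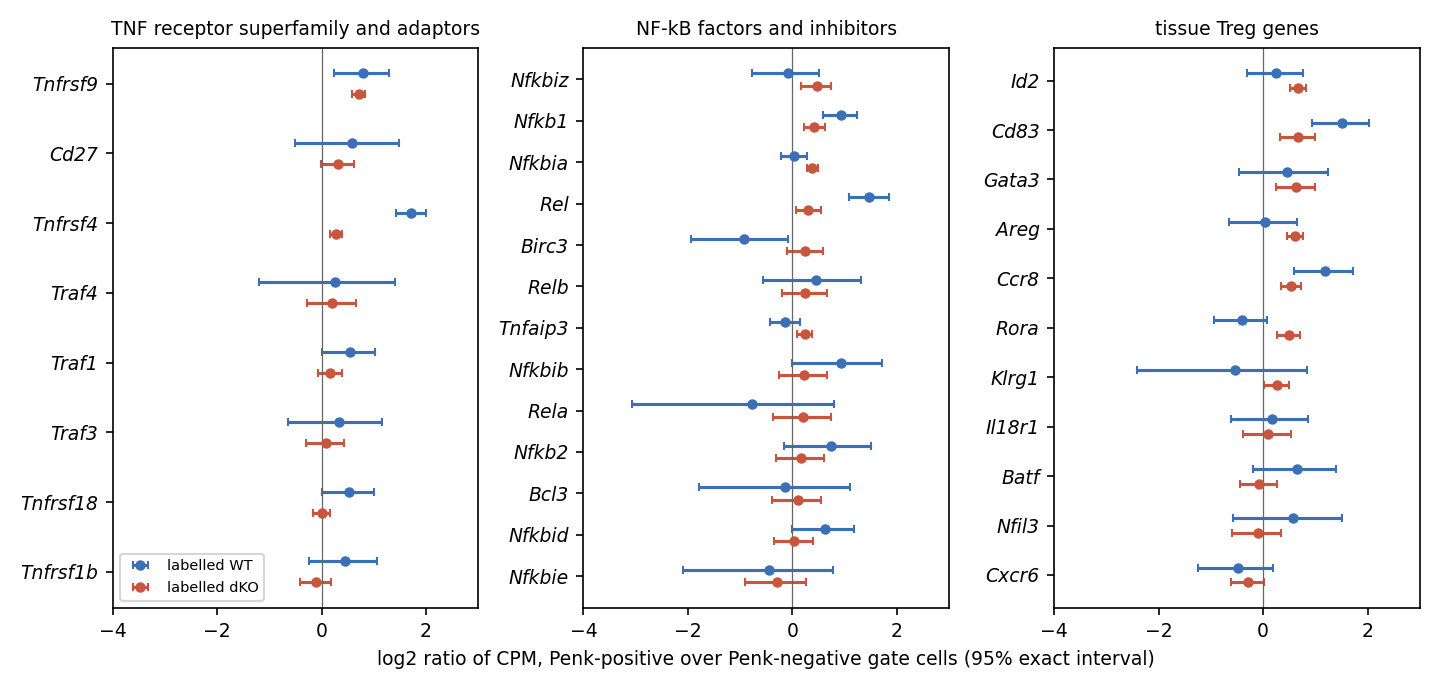
Log2 ratio of CPM in Penk-positive over Penk-negative gate cells (x axis) for the measured members of 3 gene lists (y axis), with exact 95% intervals. Tnfrsf9, Tnfrsf4, Nfkb1, Rel, Ccr8 and Cd83 have intervals above 0 in both libraries.

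Other genes were also higher by both rules. Tnfsf8 had 704 against 251 CPM and 236 against 145 CPM, log2 ratios of 1.49 (1.07 to 1.88) and 0.70 (0.36 to 1.03). With the WT label all 56 of its UMIs came from cells without a Foxp3 UMI. The inhibitory receptor gene Pdcd1 had 340 against 162 CPM and 344 against 220 CPM, 1.07 (0.45 to 1.63) and 0.65 (0.37 to 0.92). Fam110a (1.46 and 0.72) and Mir155hg, the host transcript of miR-155 (1.21 and 0.63), were higher as well. Without its highest cell, which held 5 of 10 UMIs with the WT label, Mir155hg was at 0.24 (-1.40 to 1.49) and 0.36 (-0.24 to 0.91). With 1 cell per clonotype Mir155hg turned to -0.60 (-3.67 to 1.30) under the WT label. The secreted protease gene Adamts6 had a ratio of 1.37 (0.95 to 1.75) in the library labelled dKO and 0.75 (-0.33 to 1.65) from 10 UMIs in the other. Nisch (0.64 and 0.62) and Nav2 (0.63 and 0.61) had intervals across 0 with the WT label.

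With the WT label Foxp3, which the gate used, was at 201 against 170 CPM (0.25, -0.57 to 0.96), and it was at 376 against 399 CPM (-0.08, -0.35 to 0.17) in that labelled dKO. Ctla4, the inhibitory receptor of Tregs, was at 729 against 729 CPM and 1785 against 1955 CPM, with ratios of 0.00 (-0.40 to 0.38) and -0.13 (-0.25 to -0.01). Ikzf2, also used by the gate, was higher, at 0.91 (0.62 to 1.18) and 0.22 (0.09 to 0.35). Il2ra, the high-affinity IL-2 receptor chain, gave 0.40 (-0.57 to 1.22) and 0.14 (-0.29 to 0.54). The surface markers Nrp1 and Tigit had intervals above 0 with the WT label, at 1.30 (0.55 to 1.97) and 1.46 (0.93 to 1.95). With the dKO label they were at 0.15 (-0.52 to 0.76) and 0.08 (-0.09 to 0.25), both across 0. The Nrp1 intervals of the libraries overlap, and no difference between the libraries was tested. The medians of the 8 identity genes measured were 0.24 and 0.03. The first turned to -0.16 with a Foxp3 UMI required and to -0.21 with 1 cell per clonotype, and the second had the opposite sign in 4 of 11 alternatives, down to -0.13. The medians of 11 suppressive mediators and checkpoints were 0.00 and -0.10, of which the first had the opposite sign in 6 of 11 alternatives.

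Icos, a costimulatory receptor of the CD28 family, was lower in Penk-positive cells, at 402 against 636 CPM and 534 against 703 CPM, log2 ratios of -0.66 (-1.21 to -0.16) and -0.40 (-0.62 to -0.19). Klf2, a factor of quiescence and recirculation, gave -0.70 (-1.25 to -0.19) and -0.32 (-0.60 to -0.05). Of the 10 measured members of its list of resting and lymphoid genes, 9 lay below 0 with the WT label and 5 with the dKO label. Over all genes tested 46.2% and 49.6% lay above 0, so the second count was near the share of all genes. With the dKO label Bcl2 at 0.69 (0.16 to 1.19) and Satb1 at 0.55 (0.13 to 0.93) lay above 0. Satb1 was at 0.28 (-0.17 to 0.70) without its highest cell. The medians of that list were -0.54 and 0.07, and the first turned to 0.09 with a Foxp3 UMI required and the second to -0.10 under TMM scaling. Gzmb, which encodes granzyme B, gave -1.77 (-4.05 to -0.21) on 3 UMIs of 1 cell and -0.44 (-0.83 to -0.07). The chemokine gene Ccl5 was at 704 against 1307 CPM and 4720 against 5647 CPM, -0.89 (-1.30 to -0.51) and -0.26 (-0.33 to -0.19). The Ccl5 ratio turned to 0.077 and 0.048 with a Foxp3 UMI required, both with intervals across 0, and to 0.45 (0.29 to 0.61) with 1 cell per clonotype under the dKO label. Egr1, an immediate early gene, gave -2.82 (-8.12 to -0.33) on a single UMI and -0.92 (-1.77 to -0.19) on 15 UMIs. The medians of the 9 measured T cell receptor response genes, to which Egr1 belongs, were 0.23 and -0.04. The first turned to -0.33 with a Foxp3 UMI required and the second to 0.12 with 1 cell per clonotype. Nr4a2 of the same list was at 0.26 (-0.46 to 0.90) and 0.41 (0.20 to 0.61). Il17a had 0 UMIs in the 175 Penk-positive cells against 105 CPM in Penk-negative cells of the library labelled dKO. With the 0 set to 3 counts this is 12.0-fold lower. In the other library 4 UMIs gave 50.3 against 87.6 CPM, with an interval across 0.

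Resf1 was lower in both libraries, at -2.21 (-5.27 to -0.35) and -1.0 (-1.78 to -0.31). Low ranks were also held by Zbp1 (-1.49 and -1.09), a sensor of nucleic acids, Ramp3 (-1.0 and -1.17), Khdc4 (-0.97 and -1.35), Ndufc1 (-1.07 and -0.94) and Ddt (-2.06 and -0.86), each on 1 to 3 UMIs and an interval across 0 with the WT label. Ddt turned to 0.57 (-0.53 to 1.49) with 1 cell per clonotype under the dKO label.

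MHC class II genes were among the low genes. H2-Aa had 0 UMIs against 80.3 CPM in the library labelled WT, 2.13-fold lower with the 0 set to 3 counts. In the library labelled dKO it had 43.8 against 116 CPM, -1.41 (-2.25 to -0.68). H2-Ab1 (-1.20 and -1.65) and H2-Eb1 (-2.16 and -1.30) had intervals below 0 with the dKO label alone. Markers of antigen-presenting cells are given beside them. Summed B cell markers were 0 against 20.2 CPM and 17.5 against 30.7 CPM, with all 4 and 3 of 4 genes at 0. Summed macrophage markers were 37.7 against 59.8 CPM and 70.0 against 83.4 CPM, with 6 and 2 of 8 genes at 0. The part of such RNA in the class II ratios was not tested. The other marker sums were no more than 126 CPM in the library labelled WT and 268 CPM in the other, both for plasmacytoid dendritic cell genes, against 146 and 264 CPM in Penk-negative cells. Neutrophil markers were at 0 in both sets of Penk-positive cells.

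Tnfrsf9 was also read by the number of Penk UMIs in the cell. With the dKO label it was 918 CPM with 0 Penk UMIs, 1006 (829 to 1211) with 1, 1492 (1254 to 1761) with 2 or 3 and 1901 with 4 or more. With the WT label the values were 233, 197, 343 and 594 CPM. For Tnfrsf9 the ratio of cells with a single Penk UMI to Penk-negative cells had an interval across 0 in both libraries. Id2 went from 676 through 890 and 1030 to 1265 CPM in the library labelled dKO, with a log2 ratio of 0.40 (0.09 to 0.68) at a single Penk UMI, and Ccr8 from 502 through 620 and 558 to 933. In that library Tnfrsf4 stood at 1776, 1573, 2050 and 2696 CPM, while Foxp3 stayed between 354 and 419 CPM. Icos there was at 703 and 710 CPM with 0 and 1 Penk UMI and at 408 and 477 CPM with more.

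**Figure D4:**
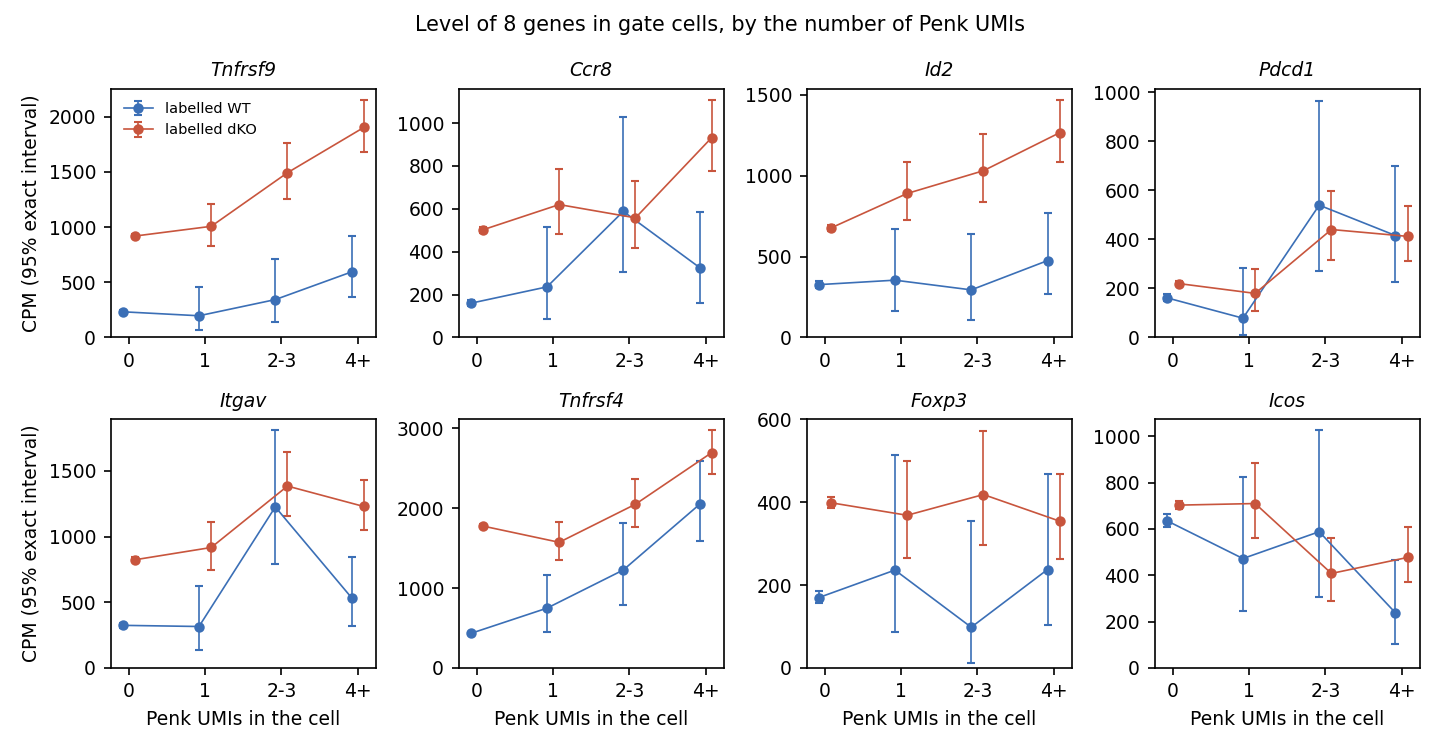
Level of 8 genes in CPM (y axes, each from 0) in gate cells with 0, 1, 2 or 3, and 4 or more Penk UMIs (x axis), with exact 95% Poisson intervals. In the library labelled dKO, Tnfrsf9 goes from 918 to 1901 CPM and Foxp3 lies between 354 and 419 CPM.

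The ratios were not the same in cells that entered the gate through Foxp3 and through Ikzf2 alone. Under the dKO label the Tnfrsf9 ratio was 0.32 (0.13 to 0.51) among cells with a Foxp3 UMI, 86 of them Penk-positive. It was 1.11 (0.93 to 1.29) among cells with Ikzf2 alone, 89 of them Penk-positive, and these intervals do not overlap. Ccr8 gave 0.11 (-0.18 to 0.38) and 0.97, and Gata3 -0.15 and 1.31. Nr4a1 stood at -0.18 and 0.47, and Ccl4, a chemokine gene, at -0.12 and -2.65. Under the WT label 9 Penk-positive cells had a Foxp3 UMI, and Tnfrsf9 was 0.98 and 0.45 with overlapping intervals. T cells with neither gate gene, which are not members, had the widest Tnfrsf9 ratios, 1.98 (1.34 to 2.56) for 46 Penk-positive cells with the WT label and 2.36 (2.05 to 2.66) for 52 with the dKO label. Their Penk-positive cells stood at 204 and 1328 CPM of Tnfrsf9 against 51.7 and 259 CPM. Cd83 there gave 2.86 and 2.81, and Pdcd1 1.77 and 1.30. Among cells with Il1rl1 the Tnfrsf9 ratios were 0.52 and 0.51. A UMI of Foxp3 or Ikzf2 is missed in shallow cells, and how many cells with neither gene were Tregs was not tested.

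**Figure D5:**
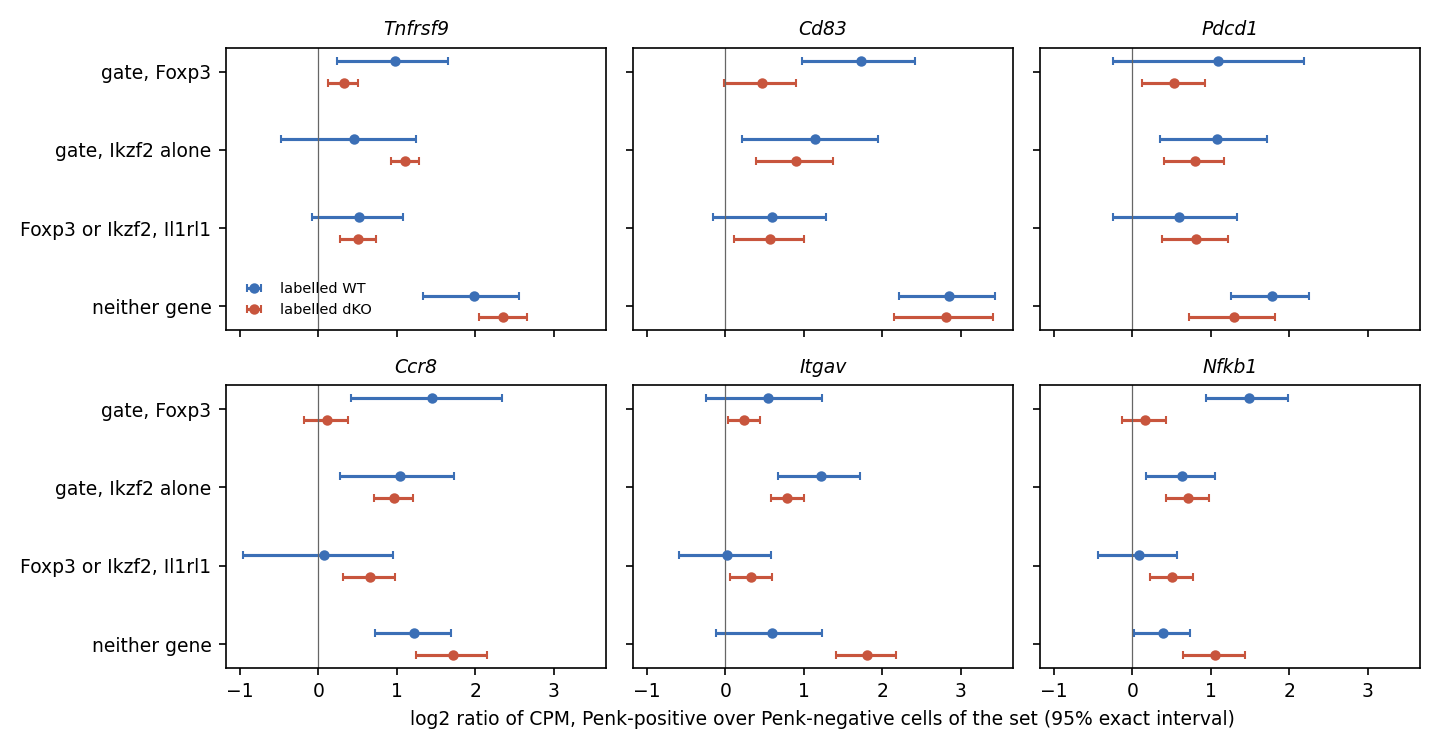
Log2 ratio of CPM in Penk-positive over Penk-negative cells (x axis) for 6 genes within 4 cell sets (y axis) of each library, with exact 95% intervals. For Tnfrsf9 the set with neither gate gene lies at 1.98 and 2.36, above the Foxp3 and Ikzf2 sets of the gate.

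Genes of the receptors for the peptides were read in the same cells. The opioid receptor genes Oprd1, Oprk1 and Oprl1 had 0 UMIs in all gate cells. Oprm1, the mu receptor, had 2 and 10 UMIs in Penk-positive cells and 63 and 199 in Penk-negative cells, or 25.2 against 19.9 and 29.2 against 22.5 CPM, with both intervals of the ratio across 0. The related precursors were at 0 UMIs for Pdyn and at 0 and 1 for Pomc. Of the convertases that cut prohormones, Pcsk2 was at 0 and Pcsk1 at 0 and 6 UMIs, while Furin, the general convertase of the secretory pathway, had 2 and 18. Tmem158, whose link to these peptides was not tested, had 0 UMIs against 4.74 CPM in the library labelled WT. With the dKO label it had 93.3 against 56.7 CPM, a log2 ratio of 0.72 (0.16 to 1.24) that lies outside the genes tested because of the level in the other library. Of 19 genes of the list, only Cpd and Ogfr reached the minimum, and both had intervals across 0. Below the minimum, the 6 UMIs of Pcsk1 gave 17.5 against 3.72 CPM with the dKO label, a log2 ratio of 2.23 (0.69 to 3.51). Summed over the 19 genes, the list was at 189 against 297 CPM with the WT label and at 274 against 275 CPM with the dKO label.

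Levels were also set side by side between the libraries. Tnfrsf9 had a log2 ratio of dKO over WT of 1.90 (1.38 to 2.46) in Penk-positive and 1.98 (1.87 to 2.09) in Penk-negative gate cells. It was 0.72 in Penk-positive cells with a Foxp3 UMI, 9 in the library labelled WT. Ccl5 stood at 2.74 and 2.11, Areg at 1.85 and 1.27, and Ctla4 at 1.29 and 1.42. The library gap was narrower in Penk-positive cells for Tnfrsf4, 0.60 (0.31 to 0.90) against 2.04 (1.96 to 2.12), although without the WT-labelled cell that held 44 of 113 UMIs the first was 1.14 (0.78 to 1.52), and for Tigit, 0.96 (0.46 to 1.5) against 2.34 (2.21 to 2.47). Rel went from 0.39 (0.28 to 0.50) in Penk-negative to -0.78 (-1.22 to -0.33) in Penk-positive cells. Genotype, library and cell number cannot be told apart in these ratios.

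T cell receptor sequences had not been used to choose the cells. A pair of alpha and beta chains was read in 9 of the 27 Penk-positive cells with the WT label (33.3%) and in 34 of the 175 with the dKO label (19.4%), against 32.2% and 18.2% of Penk-negative cells. Cells with the same 2 CDR3 sequences were taken as a clone. The 34 cells of the library labelled dKO fell into 31 clones and the 9 cells of the other library into 9. Clones of 10 or more cells held 5 of the 34 Penk-positive cells, or 14.7% (4.95 to 31.1), against 28.1% (25.2 to 31.2) of 903 Penk-negative cells, and these intervals overlap. Without the largest clone the shares were 12.1% and 18.8%. Under the WT label they held 0 of 9, which allows up to 33.6%, against 39 of 377, or 10.3%. No clone was shared between the libraries.

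Under the dKO label 2 clones had more than 1 Penk-positive gate cell, and the largest clone of that library is set beside them because it held many more gate cells and 1 Penk-positive one. Clone 1 had 7 cells, 5 of them in the gate and 3 of these Penk-positive (60%, 14.7 to 94.7), and 5 with a Foxp3 UMI. It used TRAV4-4-DV10 with TRAJ52 and TRBV16 with TRBJ1-6. Clone 2 had 3 cells, 2 of them in the gate and both Penk-positive, and used TRAV13-1 with TRAJ28 and TRBV31 with TRBJ1-2. The largest clone had 281 cells, 105 in the gate and 1 Penk-positive (0.952%, 0.0241 to 5.19), and used TRAV6-1 with TRAJ30 and TRBV13-1 with TRBJ2-4. The CDR3 sequences are printed as deposited, 5′ to 3′, with capitals for the codons between the first cysteine and the last phenylalanine codon.
Clone 1, alpha: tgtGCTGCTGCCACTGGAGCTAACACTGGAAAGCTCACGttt
Clone 1, beta: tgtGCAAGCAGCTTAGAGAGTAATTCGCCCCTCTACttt
Clone 2, alpha: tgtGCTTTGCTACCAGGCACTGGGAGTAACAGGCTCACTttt
Clone 2, beta: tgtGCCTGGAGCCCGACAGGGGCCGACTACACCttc
Largest clone, alpha: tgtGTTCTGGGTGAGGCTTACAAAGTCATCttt
Largest clone, beta: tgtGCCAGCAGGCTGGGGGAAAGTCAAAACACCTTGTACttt
The sequences are 33 to 42 bases long, and each of the 3 clones used its own V and J segments. Over the 7 clones of the library labelled dKO with a Penk-positive cell and at least 2 gate cells, 10 of 185 gate cells had a Penk UMI, with 105 of the 185 from the largest clone. These clones were chosen for holding a Penk-positive cell, so the count is a description.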

How the data were processed

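The authors sorted liver CD4 T cells, prepared 10x Chromium 5′ libraries with paired T cell receptor libraries, and deposited filtered UMI counts per gene and cell, not normalized, with receptor contigs. The matrix headers name Cell Ranger 7.0.1, and the labels name mm10. Gene positions are from the GENCODE M21 annotation of mm10. Counts were summed over the cells of each set and divided by the set's UMIs (CPM). Ratios carry exact conditional binomial intervals, levels exact Poisson intervals and shares exact Clopper-Pearson intervals (95%, scipy 1.17.1). UMIs are counted molecules, so these cover counting error only. A set at 0 was given a floor of 3 counts over the set. This floor is a set value and not an interval limit.

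Rule genes and the genes of antigen receptors, mitochondria and ribosomal proteins were left out of the 2982 genes tested. Genes named were the rule genes, the 10 highest and 10 lowest by the smaller of both log2 ratios, members of 21 lists with 206 genes, the Nr4a genes and Tmem158. Further genes are named from the interval rule after their values were seen. A gene that the rule named is not reported here. The cells and lists were chosen with earlier results of these data known. No doublet caller was run, and leaving out cells with 2 or more beta chains was an alternative. The ratio step was run on simulated Poisson counts. These leave out the uneven spread of UMIs between cells, so the intervals were not checked against it. Receptor cells were joined by barcode. Alternatives covered the gate, Penk threshold, scaling (edgeR 4.0.16 TMM), CPM minimum, clones and depth. Bulk or other experiments were not used here.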

Additional observations from a re-analysis of the deposited data

Results flagged for a closer look

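For 3 of the genes named here the interval of the log2 ratio of Penk-positive over Penk-negative gate cells lay above 0 in one library and below 0 in the other. This was true of 19 of 2982 genes tested. With 1 library a genotype the difference between the libraries was not tested.

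Ccl4, a chemokine gene, had a log2 ratio of 1.17 (0.56 to 1.73) in the library labelled WT and -1.28 (-1.66 to -0.91) in the library labelled dKO. In the first, 13 of its 27 UMIs came from 1 cell, and without that cell the ratio was 0.26 (-0.62 to 1.02). It was -0.81 with a Foxp3 UMI required, with an interval across 0, and -1.36 with 1 cell per clonotype and its 0 UMIs set to 3 counts.

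Nr4a1, a gene targeted in the dKO mice, had -0.44 (-0.89 to -0.02) in the library labelled WT and 0.13 (0.02 to 0.24) in the library labelled dKO. The second turned to -0.03 under TMM scaling and was 0.09 (-0.02 to 0.20) without its highest cell. It turned to -0.18 (-0.34 to -0.03) with a Foxp3 UMI required and to -0.69 (-0.98 to -0.41) with 1 cell per clonotype, where the first was 0.052.

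Satb1, a chromatin organiser of T cells, had -0.97 (-2.10 to -0.03) on 9 UMIs in the library labelled WT and 0.55 (0.13 to 0.93) on 57 UMIs in the library labelled dKO. Without its highest cell the second was 0.28 (-0.17 to 0.70). With a Foxp3 UMI required the first turned to 0.56 (-0.91 to 1.72).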

How the results depend on the processing

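The share of gate cells with Penk in the library labelled dKO was 2.42% with at least 2 Penk UMIs required. With 1 cell per clonotype and Penk class it was 5.15%, among cells with both receptor chains read. Before that step 34 of 937 such cells had Penk. The step keeps a Penk-positive cell of a mixed clone while its Penk-negative cells fall to 1. The 5.15% is therefore not a share of all gate cells. The 11 genes at least 1.5-fold higher in both libraries became 24 with Foxp3 required (9 and 86 Penk-positive cells; 3 shared), 26 with at least 2 Penk UMIs, 66 with 1 cell per clonotype (9 and 31 cells; 5 shared), 1 under TMM scaling, 18 by the mean of each cell's CPM, 72 and 4 with minimums of 20 and 100 CPM, and 28 by intervals. The 26 lower genes became 44, 52, 120, 88, 44, 138 and 2 in the same order, 9 with Il10 and Il1rl1 cells kept, and 22 by intervals. List members higher in both libraries, 3, became 0 with Foxp3 required, 6 with at least 2 Penk UMIs and 0 under TMM. Those lower, 3, became 5 with Foxp3 required, 11 with 1 cell per clonotype, 7 under TMM, 7 with 20 CPM and 0 with 100 CPM. TMM moved every log2 ratio by -0.19 with the WT label and -0.16 with the other, to medians of -0.25 and -0.17 over all genes, and under it the medians of the TNF receptor list were 0.34 and 0.02, of the tissue Treg list 0.06 and 0.33, and of the NF-kB list -0.15 and 0.07. The dKO over WT ratio of Tnfrsf9 was 0.72 with Foxp3 required, and that of Nr4a1 1.35 with it and 0.62 with 1 cell per clonotype. The share of Penk-negative cells in clones of 10 or more cells was 5.77% and 24.4% with Foxp3 required, 16.5% and 31.7% by beta chain alone, 15.6% and 35.2% with clones of 5, 5.31% and 22.4% with clones of 20, and, in the library labelled dKO without its largest clone (chosen after the data were seen), 18.8% against 12.1% of Penk-positive cells.

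Log2 ratios that changed sign with Foxp3 required were Tnfsf8 at -0.24 with 0 UMIs set to the 3-count floor, Tnfrsf18 at -0.0066, Ccl4 at -0.81, Ccl5 at 0.077 and Satb1 at 0.56 in the library labelled WT, and Nr4a1 at -0.18, Klrg1 at -0.050, Gata3 at -0.15 and Ccl5 at 0.048 in the library labelled dKO. With 1 cell per clonotype they were Mir155hg at -0.60, Nr4a1 at 0.052 and Ccl4 at -1.36 in the library labelled WT, and Ddt at 0.57, Izumo1r at 0.27, Rel at -0.087, Nr4a1 at -0.69 and Ccl5 at 0.45 in the library labelled dKO. Birc3 was 0.18 in the library labelled WT with Il10 and Il1rl1 cells kept, and Nr4a1 -0.030 in the library labelled dKO under TMM. The cause of these moves was not tested. No paired analysis was possible because each genotype had 1 library and no replicate numbers. No replicate could be left out for the same reason. Leaving out the cell with the most UMIs of a gene, also between the libraries, was chosen after the data were seen. The 79509 UMIs of the Penk-positive cells in the library labelled WT limit every ratio there.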
